A study of Mus musculus with 6 samples.

Results

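The 9 genes described here, C1qa, C1qb, C1qc, Csf1r, Cx3cr1, Adgre1, Ly6c2, Ccr2 and Ms4a7, mark monocytes and interstitial macrophages of the lung. They were taken by name from a table of normalized counts with 49568 gene rows, and all 9 were present. Lungs of mice labelled Col6a1-/- (strain label C57BL/6) were compared with wildtype C57BL/6 lungs, at an age of 6 weeks in both groups. The labels do not give the design of the Col6a1 allele or the sex of the animals. RNA came from the right lobes after the lung vessels had been flushed with cold saline, and each of the 3 libraries per genotype held the pooled RNA of 2 animals. The labels name no agent for either group. None of the 9 genes passed the limma test between genotypes, which 11 of all 16879 tested genes passed. Adgre1 and Ccr2 stood furthest from wildtype, in opposite directions, and Cx3cr1 and Ly6c2 stood apart in 1 Col6a1-/- library.

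Circulating monocytes enter the lung from blood, and some mature there into macrophages of the interstitium, the tissue between airspace and vessel. Classical monocytes carry the antigen Ly6C and the chemokine receptor CCR2, which they need to leave the bone marrow, whereas patrolling monocytes carry little Ly6C, much CX3CR1, and stay along vessel walls. Interstitial macrophages express the complement component C1q, the receptor for colony stimulating factor 1 and MS4A7, and are distinct from the alveolar macrophages of the airspace. C1q is itself a protein with collagen-like stalks, built from the products of C1qa, C1qb and C1qc.

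The promoters of C1qb, C1qc and Ly6c2 are printed to show where a short myeloid sequence lies in a pair of neighbouring genes and in a gene with 2 copies of it; no result between genotypes rests on them. Each runs from 250 bases before to 50 bases after the start site, 5′ to 3′ on the gene's strand, from RefSeq on GRCm38.p6. Capitals mark GAGGAA or its reverse complement TTCCTC, a core sequence bound by PU.1, the factor that sets the myeloid lineage.
C1qb: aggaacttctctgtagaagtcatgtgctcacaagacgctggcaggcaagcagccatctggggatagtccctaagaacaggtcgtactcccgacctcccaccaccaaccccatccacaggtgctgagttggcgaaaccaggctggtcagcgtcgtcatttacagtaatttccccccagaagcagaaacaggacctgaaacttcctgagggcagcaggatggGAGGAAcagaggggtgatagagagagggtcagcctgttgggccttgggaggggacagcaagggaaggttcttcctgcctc
C1qc: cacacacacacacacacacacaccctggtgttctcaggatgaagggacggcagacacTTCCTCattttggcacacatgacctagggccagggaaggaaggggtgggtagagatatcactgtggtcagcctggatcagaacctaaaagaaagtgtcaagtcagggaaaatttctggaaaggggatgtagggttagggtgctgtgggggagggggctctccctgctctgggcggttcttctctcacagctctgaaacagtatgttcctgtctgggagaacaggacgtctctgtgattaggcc
Ly6c2: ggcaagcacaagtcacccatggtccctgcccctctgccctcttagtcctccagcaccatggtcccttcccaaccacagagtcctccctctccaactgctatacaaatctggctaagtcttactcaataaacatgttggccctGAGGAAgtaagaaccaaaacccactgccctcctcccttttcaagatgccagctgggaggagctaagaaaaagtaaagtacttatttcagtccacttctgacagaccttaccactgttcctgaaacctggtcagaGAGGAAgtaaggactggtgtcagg
The C1qb window (chr4:136886151-136886450, minus strand) held 1 copy on its own strand, beginning at base -30 from the start. The C1qc window (chr4:136892865-136893164, minus strand) held 1 copy on the opposite strand, from base -193. The Ly6c2 window (chr15:75111922-75112221, minus strand) held 2 copies on its own strand, from bases -108 and +27. A second Ly6c2 start in RefSeq has these copies at bases -142 and -8. RefSeq windows matched 6 of the 9 genes. The windows of Cx3cr1 and Ccr2 held 0 copies, and 1 of the 2 windows of Ms4a7 held 1 copy. Of all 32851 windows, 28.3% held the sequence on either strand, so its presence is a description of the letters and not of binding.

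The libraries held 28055414 to 37904878 reads in genes, and the 9 genes had between 104 and 6198 reads in any library. Markers of lung cells were abundant in all libraries, from 443498 to 583425 normalized counts for Sftpc of alveolar type 2 cells and from 11867 to 14758 for the endothelial gene Cldn5. The targeted gene Col6a1 stood at 49.5% of wildtype (log2 fold change -1.01, limma adjusted p 0.00643). Reads of Col6a1 thus remained in the Col6a1-/- libraries, at 9344 to 10616 normalized counts, and which part of the gene the allele removes is not known here. The pools differed in sex: the mean level of 4 Y-linked genes, relative to the library with the least Xist, came to 0.347%, 3.35% and 51.5% for wildtype replicates 1, 2 and 3, against 72.5%, 100% and 51.1% for the Col6a1-/- replicates. Across all genes, 11 of 16879 tested (0.0652%) passed the limma threshold, an adjusted p of 0.05 over all tested genes. Fold changes below are on the scale of log2(normalized count + 1), and the interval beside each is the 95% interval of the limma estimate. The SD is over 3 pools.

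**Figure D1:**
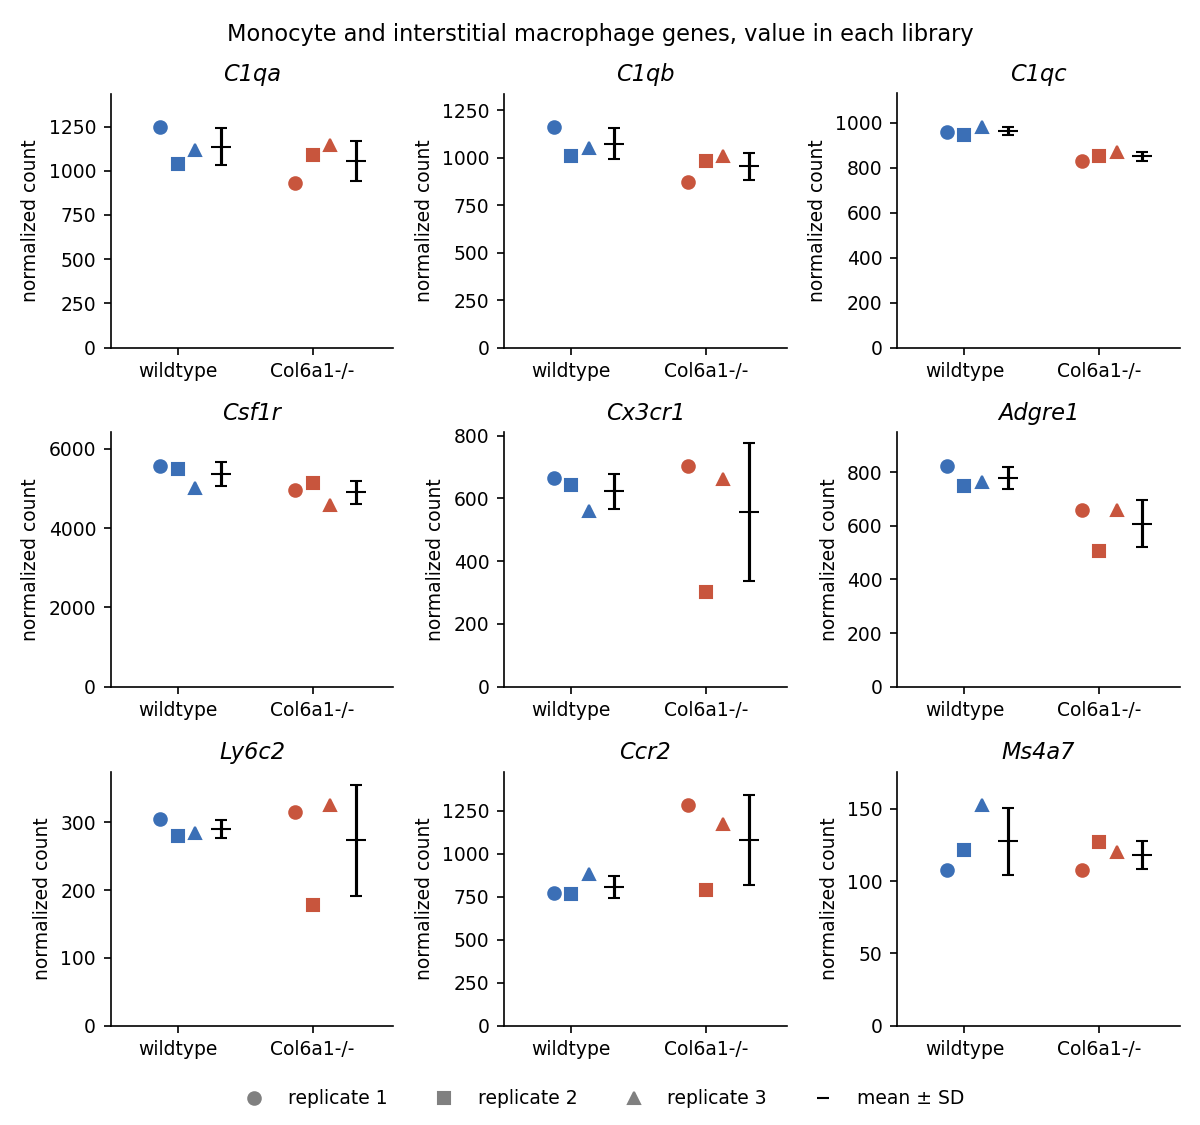
Normalized count (vertical axes, starting at 0) of each of the 9 genes in the 3 wildtype (blue) and 3 Col6a1-/- (red) libraries; symbols mark replicates, and the black bar is the mean with its SD. C1qc and Adgre1 were lower in all 3 Col6a1-/- libraries than in any wildtype library, and Cx3cr1 and Ly6c2 had 1 low library, Col6a1-/- replicate 2.

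The C1q genes lie side by side on chromosome 4 (GRCm38), within 18675 bases from 136880129 to 136898803, all on the minus strand. C1qa (ENSMUSG00000036887.5) encodes the A chain of C1q, the recognition unit of the classical complement pathway. Wildtype replicates 1, 2 and 3 had 1249, 1041 and 1117 normalized counts, and the Col6a1-/- replicates, in the same order, 929, 1090.1 and 1145. The genotypes overlapped, with Col6a1-/- replicate 1 lowest. The mean was 1136 ± 106 in wildtype, against 1055 ± 112 in Col6a1-/- lungs, a log2 fold change of -0.11 (interval -0.35 to 0.14, limma adjusted p 0.605). The estimate was -0.020 without Col6a1-/- replicate 1, -0.038 without wildtype replicate 1, -0.17 without wildtype replicate 2 or Col6a1-/- replicate 3 and -0.19 with a smooth trend on transcript length and GC content removed from each library.

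C1qb (ENSMUSG00000036905.8), the B chain gene, had 1164, 1008 and 1050.45 normalized counts in wildtype and 874, 981 and 1009.7 in Col6a1-/- lungs, in replicate order. Only Col6a1-/- replicate 3 reached into the wildtype range, and it did so by the margin between 1009.7 and 1008. Its log2 fold change was -0.17 (interval -0.39 to 0.05, limma adjusted p 0.361), and -0.11 without replicate 1 of either genotype. C1qc (ENSMUSG00000036896.5), the C chain gene, had 962, 948 and 984 in wildtype, against 833, 852 and 873 in Col6a1-/- lungs. Every Col6a1-/- library lay below every wildtype library, and the spread within each genotype was narrow, at 965 ± 17.8 against 852 ± 19.9. C1qc stood at 88.4% of wildtype, with a log2 fold change of -0.18 (interval -0.37 to 0.01) and a limma adjusted p of 0.276, so this gap did not pass over all genes. In the fit reported all 3 C1q estimates were negative, and their intervals do not exclude 0. With the length and GC trend removed they were further from 0, at -0.19 for C1qa, -0.24 for C1qb and -0.25 for C1qc. The limma adjusted p in that fit was 0.271, 0.165 and 0.179.

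Csf1r (ENSMUSG00000024621.16, chromosome 18, 61100598 to 61132149, plus strand) encodes the receptor through which CSF1 and IL-34 keep macrophages alive. It had 5576, 5491 and 5017 normalized counts in wildtype and 4974, 5136 and 4586 in Col6a1-/- lungs, in replicate order. The groups overlapped, since Col6a1-/- replicate 2 exceeded wildtype replicate 3. The log2 fold change was -0.13 (interval -0.32 to 0.06, limma adjusted p 0.419), and it was -0.084 without Col6a1-/- replicate 3 and 0.016 with the length and GC trend removed. Without wildtype replicate 3 it was -0.18, and with libraries weighted by quality -0.19 (limma adjusted p 0.101).

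Adgre1 (ENSMUSG00000004730.15, chromosome 17, 57358691 to 57483527, plus strand) encodes F4/80, an adhesion receptor used as a general surface marker of mouse macrophages. Its normalized counts were 825, 749 and 764 in wildtype, against 659, 506 and 658 in Col6a1-/- lungs. All 3 Col6a1-/- libraries lay below the wildtype range, and replicate 2 lay furthest below. The mean was 779 ± 40.2 in wildtype, against 608 ± 87.8 in Col6a1-/- lungs, or 78.0% of wildtype, with a log2 fold change of -0.37 (interval -0.64 to -0.10). Its limma adjusted p was 0.149, the smallest among the 9 genes and not past the threshold. Without Col6a1-/- replicate 2 the estimate was -0.24 (limma adjusted p 0.223).

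Ms4a7 (ENSMUSG00000024672.11, chromosome 19, 11321039 to 11336146, minus strand) encodes a membrane-spanning protein of the MS4A family found on macrophages. Its normalized counts were 108, 122 and 153 in wildtype, against 108, 127 and 119.96 in Col6a1-/- lungs, so the Col6a1-/- libraries all lay between or just below the wildtype ones. The log2 fold change was -0.10 (interval -0.48 to 0.28, limma adjusted p 0.772). It was 0.038 without wildtype replicate 3, the highest library, -0.21 without wildtype replicate 1 and -0.034 without Col6a1-/- replicate 1.

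The monocyte genes Cx3cr1, Ly6c2 and Ccr2 had a wider spread over Col6a1-/- than over wildtype libraries; this difference in spread was not tested. Cx3cr1 (ENSMUSG00000052336.7, chromosome 9, 119901616 to 120069879, minus strand) encodes the receptor for fractalkine. It had 665, 643 and 559.6 normalized counts in wildtype and 705, 303 and 661 in Col6a1-/- lungs, in replicate order. Col6a1-/- replicate 2 stood at 48.7% of the wildtype mean, while replicates 1 and 3 stood at 113% and 106%. The SD was 39.6% of the mean in Col6a1-/- and 8.92% in wildtype lungs. The log2 fold change over all 6 libraries was -0.25 (interval -0.84 to 0.33, limma adjusted p 0.611), and without Col6a1-/- replicate 2 it was 0.14 (limma adjusted p 0.534).

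Ly6c2 (ENSMUSG00000022584.14, chromosome 15, 75108158 to 75111970, minus strand) encodes an antigen recognised as Ly6C on classical monocytes. Its normalized counts were 305, 279.9 and 285 in wildtype, against 315, 178 and 326 in Col6a1-/- lungs. Col6a1-/- replicates 1 and 3 lay above the whole wildtype range and replicate 2, as for Cx3cr1, lay below it, at 61.5% of the wildtype mean. The SD was 30.2% of the mean in Col6a1-/- and 4.66% in wildtype lungs. The log2 fold change was -0.14 (interval -0.60 to 0.32, limma adjusted p 0.736), and without Col6a1-/- replicate 2 it was 0.15 (limma adjusted p 0.533). Of the 50-base stretches in Ly6c2 transcripts, 13.9% also occur in transcripts of the neighbouring copy Ly6c1, so the split of such reads between the copies is uncertain. In the other members, at most 1.91% of these stretches occurred in transcripts of another gene.

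Ccr2 (ENSMUSG00000049103.14, chromosome 9, 124101950 to 124113557, plus strand), the receptor for the chemokine CCL2, was the one member with a positive estimate. It had 771, 768 and 880.1 normalized counts in wildtype and 1286, 787 and 1173 in Col6a1-/- lungs, in replicate order. Col6a1-/- replicates 1 and 3 stood at 159% and 145% of the wildtype mean, above all wildtype libraries, and replicate 2 at 97.6%, within the wildtype range. The mean was 806 ± 63.8 in wildtype, against 1082 ± 261 in Col6a1-/- lungs, a log2 fold change of 0.40 (interval 0.03 to 0.76) with a limma adjusted p of 0.214. Without Col6a1-/- replicate 2 the estimate was 0.61, with a limma adjusted p of 0.0584, and without replicate 1 it was 0.26 (limma adjusted p 0.408). With the length and GC trend removed it was 0.20 (limma adjusted p 0.401).

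**Figure D2:**
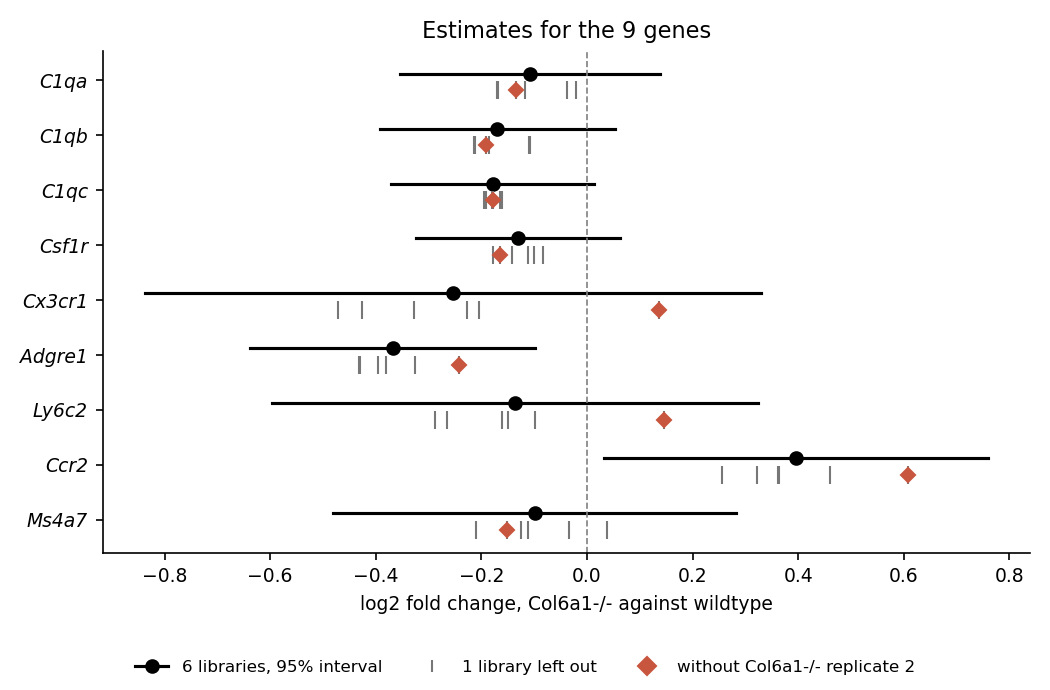
Log2 fold change of Col6a1-/- against wildtype (horizontal axis) for each gene: black points and lines are the estimate from 6 libraries and its 95% interval, grey ticks the estimates with 1 library left out, and red diamonds those without Col6a1-/- replicate 2. Without that library Cx3cr1 moved from -0.25 to 0.14, Ly6c2 from -0.14 to 0.15 and Ccr2 from 0.40 to 0.61, while C1qc stayed at -0.18.

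In all, 8 of the 9 estimates were negative, where 48.3% of all tested genes had a negative estimate. Of the 8, Cx3cr1 and Ly6c2 turned positive without Col6a1-/- replicate 2 (0.14 and 0.15), and 3 are the neighbouring C1q genes. The median of the 9 estimates was -0.14, and -0.13 without the C1q genes, beside 0.0098 over all tested genes. Libraries did not overlap between genotypes for 2 of the 9, C1qc and Adgre1, and for 24.9% of all tested genes. At an unadjusted p of 0.05, limma picked 2 of the 9, Adgre1 and Ccr2, and 20.3% of all tested genes. Both shares are near those of all genes. When libraries were weighted by quality, limma called 2 of the 9, Adgre1 lower and Ccr2 higher, and 19.1% of all tested genes. In the authors' deposited table none of the 9 genes had an adjusted p under 0.05, where 5.05% of its genes did. Adgre1 had a log2 fold change of -0.31 and an adjusted p of 0.106 in the authors' deposited table, and Ccr2 had 0.34 and 0.109. DESeq2 on reads recovered from the normalized counts gave -0.357 and 0.425 at the same rounded adjusted p. The deposited fold changes, here and below, are thus not on the scale of the limma ones. Whether fewer cells or less RNA per cell lay behind a lower level cannot be told apart in RNA of lung lobes.

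Col6a1-/- replicate 2 was the lowest of the 6 libraries for 3 of the 9 genes, Cx3cr1, Adgre1 and Ly6c2, and for 16.9% of all tested genes. The other 6 members, among them all C1q genes, Csf1r and Ms4a7, had their lowest value in other libraries. The same library was lowest for 4 of 8 classical monocyte genes, 5 of 9 patrolling monocyte genes, 7 of 8 tested neutrophil genes, all 6 B cell genes and all 5 general leukocyte genes. It was lowest for 9 of 14 genes shared by mononuclear phagocytes, 7 of 12 alveolar macrophage, 4 of 7 dendritic cell and 4 of 6 T and NK cell genes, and for 1 of 12 interstitial macrophage genes. It was the highest library for 3 of those 12, Cbr2, Apoe and Gas6, and for 19.2% of all tested genes. The part of other lung cells in the values of the interstitial macrophage list was not tested. Treml4, a receptor of patrolling monocytes, had 230, 273 and 226 normalized counts in wildtype and 267, 134 and 262 in Col6a1-/- lungs, the pattern of Cx3cr1. Fcgr1, a high-affinity antibody receptor of monocytes and macrophages, had 128, 154 and 150.1 in wildtype, against 153, 87.5 and 158 in Col6a1-/- lungs. Treml4, Fcgr1 and the count of lowest libraries were chosen after the values were seen.

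Among the Col6a1-/- libraries, the blood markers S100a8 and Hbb-bs were lowest in replicate 2, as were Cx3cr1, Ly6c2, Adgre1 and Ccr2. The C1q genes, Csf1r and Ms4a7 were not lowest there. Relative to the wildtype mean, replicate 2 stood at 102% for S100a8 and 139% for Hbb-bs, against 48.7% for Cx3cr1 and 61.5% for Ly6c2. The other 7 of 8 tested neutrophil genes had their lowest value of all 6 libraries in this pool. They stood there at 61.4% (Mmp8) to 71.0% (Retnlg) of the wildtype mean, apart from Ngp, at 18.9% and only 3.28 normalized counts. S100a8, a calcium-binding protein of neutrophils, had 316, 258 and 314 normalized counts in wildtype and 658, 301 and 964 in Col6a1-/- lungs. The beta globin gene Hbb-bs of red cells had 22097, 21278 and 22143 in wildtype, against 43896, 30384 and 53958 in Col6a1-/- lungs, again lowest in replicate 2 among the 3. All 5 red cell genes were higher in every Col6a1-/- library than in any wildtype library (limma adjusted p from 0.0781, none past the threshold), as were 3 of 4 platelet genes and 10.7% of all tested genes. In the authors' deposited table all 5 red cell genes were called higher, led by Hbb-bs (log2 fold change 0.79, adjusted p 2.21e-06), and 1 platelet gene was, Ppbp (0.87, adjusted p 4.78e-06). The summed neutrophil list ran from 2102 to 2891 in wildtype and from 1817 to 4385 in Col6a1-/- lungs, with its defining genes Ly6g and Camp near 0, at most 6.42 and 10.996 normalized counts. The summed red cell list ran from 41736 to 47783 and from 62062 to 102287. Col6a1-/- replicate 2 was also the library with almost no Xist, at 28.4 normalized counts. With the Y-linked share as a covariate the estimates were 0.46 for Cx3cr1 and 0.33 for Ly6c2 (limma adjusted p 0.736 and 0.789). In the same fit they were -0.15 for Adgre1, 0.56 for Ccr2, -0.42 for Ms4a7 and -0.058 for C1qa (limma adjusted p 0.845, 0.665, 0.698 and 0.950). The part of retained blood and of the sex of the pools in the members' values was not tested.

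**Figure D3:**
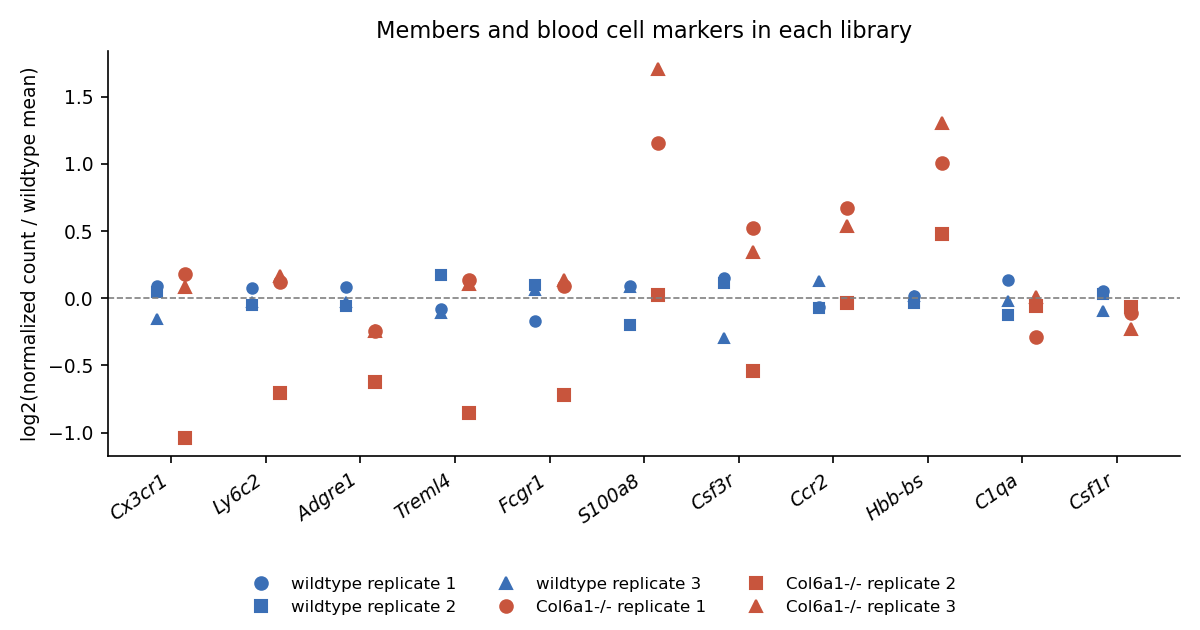
Log2 ratio of each library's normalized count to the wildtype mean (vertical axis) for 6 members and for Treml4, Fcgr1, S100a8, Csf3r and Hbb-bs, by library (blue wildtype, red Col6a1-/-; symbols mark replicates). Col6a1-/- replicate 2 (red squares) lies below the other 2 Col6a1-/- libraries for every gene shown but C1qa and Csf1r. The members C1qb, C1qc and Ms4a7 are not shown, and for none of them was replicate 2 the lowest Col6a1-/- library. Csf3r, a neutrophil gene, was chosen after the values were seen.

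Per kilobase of joined exons, the wildtype levels ran, from high to low, in the order C1qa, C1qb, Csf1r, C1qc, Adgre1, Cx3cr1, Ccr2, Ly6c2 and Ms4a7. The level was 1092 ± 101 normalized counts per kilobase for C1qa, 987 ± 74.3 for C1qb and 929 ± 52.2 for Csf1r. The wildtype libraries of C1qa and C1qb overlapped, as did those of C1qb and Csf1r, and those of Cx3cr1 and Ccr2, at 138 ± 12.3 and 119 ± 9.44. The other neighbours in this order did not overlap in wildtype libraries, down to 28.7 ± 5.17 for Ms4a7. In Col6a1-/- libraries Ccr2 (160.03 ± 38.7) had a higher mean level per kilobase than Cx3cr1 (123 ± 48.9), with overlap. C1qc was the fourth on both lengths tried, at 499.5 per kilobase of joined exons and 802 per kilobase of its longest transcript. On the latter scale Csf1r led at 1140.45, above C1qa at 1092, and Ccr2 (140.8) stood above Cx3cr1 (138.6).

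Ratios within a library do not depend on how libraries were scaled, and 5 were compared by a two-sided exact permutation test, for which 0.1 is the smallest possible p. The log2 ratio of C1qb to C1qa was -0.08 ± 0.03 in wildtype, against -0.14 ± 0.05 in Col6a1-/- lungs (exact p 0.3, adjusted over the 5 ratios 0.75). That of C1qc to C1qa was -0.23 ± 0.13 and -0.30 ± 0.13 (exact p 0.6, adjusted 1), and the libraries of the genotypes overlapped for both C1q ratios. The ratio of C1qa to Csf1r was -2.24 ± 0.14 and -2.22 ± 0.21 (exact p 1, adjusted 1). The log2 ratio of Ly6c2 to Ccr2, both genes of classical monocytes, was -1.33, -1.45 and -1.62 in wildtype pools, against -2.02, -2.14 and -1.84 in Col6a1-/- pools, in replicate order. All 3 Col6a1-/- libraries lay below the wildtype ones, replicate 2 included, with a difference of -0.53 (exact p 0.1, adjusted 0.5). When any 1 library was left out the difference stayed between -0.61 and -0.46. A ratio keeps any effect of transcript length and GC content, in which these genes differ. With that trend removed the log2 fold changes were -0.17 for Ly6c2 and 0.20 for Ccr2, beside -0.14 and 0.40 in the fit reported. This ratio was not computed with the trend removed. The ratio of Ly6c2 to Ly6c1 was -4.30 ± 0.13 in wildtype, against -4.18 ± 0.49 in Col6a1-/- lungs (exact p 0.8, adjusted 1). Ly6c1, which endothelial cells express strongly, had 5822, 6106 and 5231 normalized counts in wildtype and 4488, 4780.3 and 5106 in Col6a1-/- lungs, and did not show the low value of Ly6c2 in replicate 2.

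Partners of the members were read from lists. The proteases and substrates that follow C1q, and the complement receptors, had 9 tested genes with a median log2 fold change of 0.0080, none called by limma (1 at an unadjusted p under 0.05) or in the authors' deposited table, 5 with positive and 4 with negative estimates. The protease genes C1ra and C1s1, which bind C1q, stood at 101% and 103% of wildtype (limma adjusted p 0.975 and 0.829). C5ar1, the receptor for the C5a fragment on myeloid cells, had 473, 484 and 471 normalized counts in wildtype and 379, 312 and 402 in Col6a1-/- lungs. It was lower in all 3 Col6a1-/- libraries (log2 fold change -0.39, limma adjusted p 0.132). C2, a protease component of the classical pathway, had a log2 fold change of 0.14, and Serping1, the C1 inhibitor, of -0.05 (limma adjusted p 0.649 and 0.785).

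The list of CSF1R ligands and myeloid transcription factors had 7 negative and 4 positive estimates among 11 genes (median -0.06), none called by limma (1 at an unadjusted p under 0.05) or in the authors' deposited table. The ligand genes Csf1 and Il34 stood at 98.1% and 96.8% of wildtype (limma adjusted p 0.896 and 0.825). Spi1, which encodes PU.1, had 946, 899 and 781 normalized counts in wildtype and 712, 545 and 894 in Col6a1-/- lungs, lowest in Col6a1-/- replicate 2 (log2 fold change -0.31, limma adjusted p 0.303). Maf, a macrophage transcription factor gene, had a log2 fold change of 0.34 and Irf8, needed for monocytes and dendritic cells, of -0.18 (limma adjusted p 0.217 and 0.373). Of the 5 ligand genes of CCR2 and CX3CR1, none was called by limma, and 1 had an unadjusted p under 0.05. Cx3cl1, fractalkine, stood at 87.1% of wildtype (limma adjusted p 0.301). Ccl2 had 22.8, 25.2 and 20.3 normalized counts in wildtype and 28.9, 8.75 and 19.99 in Col6a1-/- lungs, and Ccl12 had 10.4, 17.6 and 16.5 against 24.9, 17.5 and 40.99 (limma adjusted p 0.621 and 0.245).

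Among other markers of the same cells, limma called none. At an unadjusted p under 0.05 it picked 1 higher gene of the classical monocyte list, 1 higher and 1 lower of the patrolling monocyte list, and 1 higher and 2 lower of the interstitial macrophage list. At that p limma picked 20.3% of all tested genes, in either direction. The authors' deposited table called 4 of these markers, and 5.05% of all its genes. The 4 were Mgst1 (log2 fold change 0.47, adjusted p 0.000726) and Nr4a1 (0.50, 0.0182), higher, and Lyve1 (-0.56, 0.000304) and Stab1 (-0.38, 0.0139), lower. The classical monocyte list had a median of 0.028, with 4 positive and 4 negative estimates. Mgst1, a microsomal glutathione transferase that is not limited to monocytes, was higher in every Col6a1-/- library (log2 fold change 0.52, limma adjusted p 0.0786), and Ifitm6 and Vcan had log2 fold changes of 0.43 and -0.23 (adjusted p 0.429 and 0.521). The patrolling monocyte list had a median of 0.039, with 5 positive and 4 negative estimates. It was led by Nr4a1 (log2 fold change 0.68, limma adjusted p 0.115), the nuclear receptor those monocytes need and also an immediate early gene, then Ace at -0.29 (0.199), which capillaries express, and Eno3 at 0.23 (0.334). The interstitial macrophage list had a median of -0.022, with 6 positive and 6 negative estimates. Its genes Cbr2, Apoe and Gas6 had means of 105416, 16591 and 13791 normalized counts over all libraries, beside 5130 for Csf1r. The part of other lung cells in these values was not tested. Lyve1, a hyaluronan receptor of perivascular macrophages that lymphatic vessels also carry, had 7771, 9046 and 10027 normalized counts in wildtype and 5498, 6612 and 5017 in Col6a1-/- lungs. Its genotypes did not overlap (log2 fold change -0.65, limma adjusted p 0.0786). Stab1, a scavenger receptor shared by macrophages and endothelium, had a log2 fold change of -0.42, and Pf4, shared with platelets, of 0.31 (limma adjusted p 0.095 and 0.236). Mrc1 and Folr2, also of this list, stood at 86.9% and 103% of wildtype (limma adjusted p 0.310 and 0.928). The part of alveolar macrophages in the Mrc1 value was not tested.

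Genes shared by mononuclear phagocytes had 11 negative and 3 positive estimates (median -0.22), and alveolar macrophage genes 10 negative and 2 positive (median -0.29), none called by limma, while 5 and 6 of the negative ones had an unadjusted p under 0.05. The authors' deposited table called Laptm5 lower (log2 fold change -0.32, adjusted p 0.0447), and, of the alveolar macrophage genes, Itgax, Krt79, Marco and Plet1 lower, led by Itgax (-0.41, adjusted p 0.00244). Of the shared genes, 6 of 14 had no overlap between genotypes, all lower in Col6a1-/- lungs, where 14.2% of all tested genes were lower without overlap. The lysosomal membrane gene Laptm5 had a log2 fold change of -0.36, Cd68 of -0.33 and Sirpa of -0.23 (limma adjusted p 0.122, 0.129 and 0.153). Among alveolar macrophage genes, 7 of 12 were lower without overlap, led by the integrin gene Itgax with a log2 fold change of -0.45 (limma adjusted p 0.0786). The summed alveolar macrophage list ran from 21324 to 23401 normalized counts in wildtype and from 17499 to 20007 in Col6a1-/- lungs, without overlap. Adgre1 is also expressed by alveolar macrophages, and the part of those cells in its value was not tested. Dendritic cell genes, some of which share Csf1r, Ccr2 or Cx3cr1 with monocytes, had 3 positive and 4 negative estimates (median -0.16). The lists of other blood cells had medians of -0.51 for B cells, -0.072 for T and NK cells, -0.19 for leukocytes in general, 0.13 for neutrophils, 0.82 for red cells and 0.40 for platelets, and the 3 neighbours of Ly6c2 had -0.17. Limma called no gene of these lists. At an unadjusted p under 0.05 it picked 5 of 6 B cell genes, all lower, and all 5 red cell genes, all higher. It also picked 3 of 4 platelet genes and 1 of 8 tested neutrophil genes as higher. As lower it picked 2 of 5 general leukocyte genes, 1 of 6 T and NK cell genes and 1 of the 3 neighbours of Ly6c2. Over all tested genes the share at that p was 20.3% in either direction. Beside the red cell and platelet genes above, the authors' deposited table called 3 B cell genes lower, Pax5 (log2 fold change -0.71, adjusted p 1.21e-05), Blk (-0.59, 0.00166) and Cd79a (-0.48, 0.0111).

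**Figure D4:**
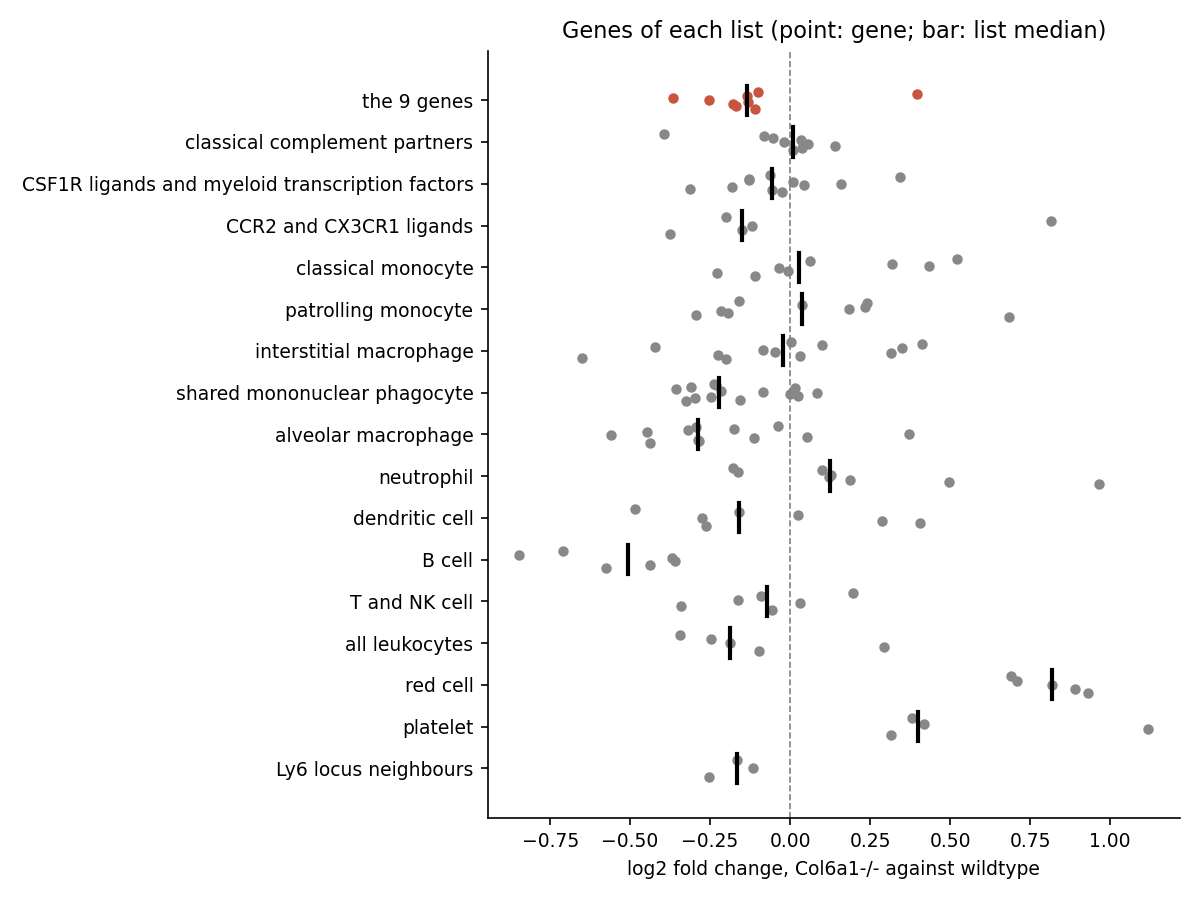
Log2 fold change of Col6a1-/- against wildtype (horizontal axis) of each tested gene in each list; points are genes, with vertical offsets only to separate them, and black bars are list medians. The 9 genes (red) have a median of -0.14, the shared mononuclear phagocyte genes -0.22, the alveolar macrophage genes -0.29 and the red cell genes 0.82.

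The genes most like each member were found by the root mean square difference of centred log2 levels over the 6 libraries, over the 13000 genes whose mean reached 100 normalized counts. For Ly6c2 they were the chemokine receptor gene Ccr1 and Cd300ld, a myeloid surface receptor gene, at 0.050 and 0.061, beside an SD of 0.32 for Ly6c2 itself. For Cx3cr1 they were Nsun7 and Cd300lb, another receptor gene of that family, at 0.082 and 0.085, and Ly6c2 ranked 14 at 0.15. For C1qa they were Nek3 and Dus2, at 0.032 and 0.033, with C1qb ranking 7 at 0.044 and C1qc 793 at 0.11. The nearest genes were Ranbp10 and Tfe3 for Csf1r (0.0091 and 0.0094), Cerk and Litaf for Adgre1 (0.038 and 0.046), Rap1a and Akap7 for Ccr2 (0.078 and 0.080), and Dnaja1 and Igfbp2 for Ms4a7 (0.057 and 0.066). With 6 libraries and 13000 genes, close profiles are plentiful, and this likeness is a description.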

How the data were processed

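RNA of the right lobes of perfused lungs was sequenced in 6 libraries, 3 per genotype. The authors deposited a signal table of gene counts normalized with DESeq2, as its name says. Per the submitters' processing notes, which give neither role nor order, the build was GRCm38.p5 and the tools were STAR 2.5.2b, Trimmomatic 0.36, featureCounts, Subread 1.5.0p3, DESeq2 1.16.1 and R 3.4.1. Not given in the sources used here: annotation release, strand setting and treatment of reads that map to several places. Dividing by the smallest step gave whole reads for 100% of values per library (tolerance 1e-06), with size factors of 0.911 to 1.25. For Col6a1-/- replicate 3 the factor was 1.0003, too close to 1 for its steps alone to test this. A second table deposited by the authors, on the genotype contrast, gives, per the file headers, a log2 fold change, a p-value and its adjusted value, and a mean and a test statistic, each a score here.

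The test took the 16879 genes, all 9 members included, that reached 10 normalized counts in 3 or more libraries. Values of log2(normalized count + 1) were fitted by genotype alone in limma 3.58.1 (R 4.3.3) with a variance trend; p-values are two-sided with Benjamini-Hochberg adjustment over those genes. The fit was tested on simulated data, with changes larger than any estimate of the members, so changes of their size were not covered. edgeR 4.0.16 and DESeq2 1.42.0 on the recovered reads were alternatives, as were other pseudocounts, filters, scalings, weights and covariates, removal of a trend on transcript length and GC (splines with 5 degrees of freedom), and each library left out. Positions and lengths came from GENCODE M21 on GRCm38, matched by symbol for 95.3% of rows. Members and the 17 marker lists were chosen with earlier results of these data known. Named with values were the members, the genes in ratios, the 3 list genes with the smallest unadjusted p in lists bearing on the members, and the 2 nearest genes of 7 members; genes named beyond this rule, such as ligands and receptors of the members and defining markers, were chosen after values were seen. Each library pools separate animals. Figures were drawn with matplotlib 3.10.9.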

Additional observations from a re-analysis of the deposited data

How the results depend on the processing

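The count of members called by limma was 0 in the fit reported and in 17 of 18 alternatives. These included edgeR and DESeq2 on the recovered reads (2 members at an unadjusted p under 0.05 in each) and all 6 fits that left out a library. The exception was weighting of libraries by quality, which called 2, Adgre1 lower (log2 fold change -0.32, limma adjusted p 0.0495) and Ccr2 higher (0.51, adjusted p 0.0157), in a fit that called 19.1% of all genes. Over all genes the count called was 11 in the fit reported. It was 93 with no filter, 7 with a filter at 50, 26 with median centring, 81 with the length and GC trend removed, 13 with edgeR, 742 with DESeq2, 3225 with library weights and 0 with the Y-linked covariate. With a library left out it ranged from 0 to 1383: 0 without wildtype replicate 1 or Col6a1-/- replicate 3, 2 without wildtype replicate 2, 47 without Col6a1-/- replicate 2 and 1383 without wildtype replicate 3. Median centring moved the calls from 3 higher and 8 lower to 3 and 23, and library weights to 1669 and 1556.

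Of 162 estimates for the 9 genes under alternatives, 154 kept direction and side of the threshold, 2 passed it and 6 changed sign. These 6 were Cx3cr1 and Ly6c2 with the Y-linked covariate (0.46 and 0.33) and without Col6a1-/- replicate 2 (0.14 and 0.15), Csf1r with the length and GC trend removed (0.016) and Ms4a7 without wildtype replicate 3 (0.038). Over left-out libraries the lowest estimates were -0.47 for Cx3cr1, -0.29 for Ly6c2 and -0.21 for Ms4a7. The cause of these changes was not tested. The log2 ratio of C1qa to Csf1r differed by 0.022 between genotypes, and by -0.057 and -0.087 without wildtype replicate 2 and Col6a1-/- replicate 3 (range over left-out libraries -0.087 to 0.12). That of Ly6c2 to Ly6c1 differed by 0.12, and by -0.056 to 0.40 over left-out libraries, the lowest without Col6a1-/- replicate 1.

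Replicate numbers come from pool order and mark no shared animal. Deviations of same-numbered pools correlated at -0.28, 0.24 and 7.18e-05 for numbers 1, 2 and 3 across 13000 genes, and not every pool correlated best with its own number. With the replicate number as a block, 0 members and 7 of all genes were called. With 104 to 158 reads per library, Ms4a7 had the least depth of the 9 genes.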
